A study of Mus musculus with 18 samples.

Results

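The inflammasome is represented here by 10 genes, taken by gene name from the 55450 genes of the deposited table. The rule uses no measured value, but the genes were chosen with earlier results of these data known. They are the sensors Nlrp3, Nlrp1b, Nlrc4 and Aim2, the adaptor Pycard, the proteases Casp1 and Casp4, the pore-forming effector Gsdmd, and the regulators of NLRP3 Nek7 and Txnip. All 10 were measured in each of 18 libraries of poly(A) RNA from mouse bone marrow derived macrophages (BMDMs), and all 10 were among the 12025 genes tested, those that reached an FPKM of 1 in 3 or more libraries. The threshold was met in 18 libraries by 8 of the genes, in 12 by Nlrc4 (the 12 without apigenin) and in 5 by Nlrp1b.

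There were 6 groups of 3 libraries: CD38KO + MSU, CD38KO non-treated, WT + MSU + apigenin, WT + MSU, WT + apigenin and WT non-treated. CD38KO cells came from mice without a working Cd38 gene, which encodes an enzyme that consumes NAD, and WT cells from mice with it, both described as on a C57BL6/J background. All groups shared the same culture, 7 days in medium with 20% L929 conditioned medium and then 24 h of priming with GM-CSF at 20 ng/ml, so that no group was unprimed. MSU (monosodium urate) crystals, the crystals of gout, were given at 0.2 mg/ml and apigenin, a plant flavone that inhibits CD38, at 25 µM, for 6 h. The labels give no age and number the replicates without saying whether they are separate mice, and the knockout is 1 line compared with WT cells only.

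In the canonical pathway, a sensor that detects a danger signal gathers the adaptor ASC, encoded by Pycard, and ASC recruits caspase-1, encoded by Casp1. Caspase-1 cuts the precursors of IL-1β and IL-18 into their active forms and cuts gasdermin D, whose fragment makes pores in the cell membrane. In macrophages the NLRP3 sensor responds to urate crystals in 2 steps, a priming step in which its gene is transcribed and an activation step acting on the protein, and RNA levels report on the priming step only.

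Total counts ran between 51058336 and 83209648 per library, and the 10 genes had at least 86 counts in every library. Cd38 was at 0.301 to 1.17 CPM (the count of a gene scaled to a common library size with TMM factors) in the 6 CD38KO libraries and at 18.4 to 92.9 CPM in the 12 WT libraries, so no library went against its genotype label. The 8 macrophage markers were all detected and summed to 11394 to 22685 CPM in CD38KO libraries, 46763 to 63465 CPM in WT libraries with apigenin and 17893 to 23610 CPM in WT libraries without it. Fibroblast markers, all 6 of them detected, summed to 82.1 to 315 CPM in CD38KO libraries and 571 to 6669 CPM in WT libraries. In each WT group, replicates 1 and 2 differed from replicate 3: Ifi202b, an interferon-inducible gene that differs between mouse strains, was at 8.04 to 152 CPM in replicates 1 and 2 and at 0 to 0.195 CPM in replicate 3 (0 to 0.206 CPM in the 6 CD38KO libraries), and the 8 neutrophil markers summed to 155 to 333 CPM against 8.40 to 25.2 CPM. In bulk RNA, fewer cells of a type and less RNA per cell cannot be told apart.

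Promoter sequences were looked up for the genes whose RNA the results turn on. RefSeq (GRCm38.p6) gave 12 start sites for 9 of the 10 genes, with none for Gsdmd, and the 250 bases before each start were searched on both strands for 7 motifs. The windows of Nlrp3, Casp4, Casp1, Pycard, Nlrc4 and Txnip are printed 5′ to 3′ on the gene's strand, without the bases that GENCODE M21 places inside a gene, and capitals mark motif matches. They are shown because these genes were called with MSU, apigenin or CD38KO, or, for Txnip, spread widely between libraries.
Nlrp3 (chr11:59541319-59541567, plus strand): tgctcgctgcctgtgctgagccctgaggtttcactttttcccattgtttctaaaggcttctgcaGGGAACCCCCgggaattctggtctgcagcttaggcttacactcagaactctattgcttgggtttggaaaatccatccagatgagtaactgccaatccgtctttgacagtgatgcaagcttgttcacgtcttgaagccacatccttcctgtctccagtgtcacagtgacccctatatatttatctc
Casp4 (chr9:5308599-5308827, plus strand): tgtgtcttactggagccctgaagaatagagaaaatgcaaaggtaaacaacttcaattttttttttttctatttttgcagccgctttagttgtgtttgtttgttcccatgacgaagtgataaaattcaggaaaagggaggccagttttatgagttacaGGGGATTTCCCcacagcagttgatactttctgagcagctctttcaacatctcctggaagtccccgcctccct
Casp1 (chr9:5298267-5298516, plus strand): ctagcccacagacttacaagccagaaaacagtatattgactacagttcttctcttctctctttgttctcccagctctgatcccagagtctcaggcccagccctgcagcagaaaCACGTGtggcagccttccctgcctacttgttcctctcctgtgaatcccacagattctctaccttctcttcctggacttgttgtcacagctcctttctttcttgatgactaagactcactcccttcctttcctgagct
Pycard (chr7:127993868-127994117, minus strand): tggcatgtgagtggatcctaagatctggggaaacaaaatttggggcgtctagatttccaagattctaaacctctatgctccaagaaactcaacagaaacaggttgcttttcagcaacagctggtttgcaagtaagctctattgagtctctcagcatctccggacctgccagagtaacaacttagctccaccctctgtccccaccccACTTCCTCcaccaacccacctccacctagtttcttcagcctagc
Nlrc4 (chr17:74459143-74459358, minus strand): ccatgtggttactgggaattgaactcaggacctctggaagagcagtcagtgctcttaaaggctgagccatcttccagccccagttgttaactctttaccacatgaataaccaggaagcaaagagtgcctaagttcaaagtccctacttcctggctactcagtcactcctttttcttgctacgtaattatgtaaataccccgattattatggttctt
Txnip (chr3:96557707-96557956, plus strand): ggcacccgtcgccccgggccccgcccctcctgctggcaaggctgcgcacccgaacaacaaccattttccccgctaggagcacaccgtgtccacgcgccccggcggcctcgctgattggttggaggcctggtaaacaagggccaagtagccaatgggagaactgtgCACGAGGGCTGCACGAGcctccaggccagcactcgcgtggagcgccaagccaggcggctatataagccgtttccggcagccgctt

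The capitals in Nlrp3 and Casp4 are matches to the NF-κB consensus, a site for the transcription factor family that drives priming. It starts 186 bases before the Nlrp3 start, on the opposite strand, and 93 bases before the Casp4 start, where 3 matches on both strands overlap. The NF-κB consensus was found in 3.90% of 32851 promoter windows. A second annotated start of Nlrp3 held no match, and the window of Nlrc4 held none of the 7 motifs. The Casp1 capitals are an E-box, CACGTG, found in 6.02% of windows. The Pycard capitals match GAGGAAGT, a site of the macrophage factor PU.1, on the opposite strand, a motif found in 2.44% of windows and also in those of Nlrp1b and Aim2. The Txnip capitals match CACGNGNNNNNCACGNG, a carbohydrate response element, found in 0.0457% of windows. The AP-1 site TGANTCA (6.75% of windows), the CRE TGACGTCA (1.55%) and the GAS element TTCNNNGAA (7.02%) matched none of the 12 windows. A match is a description of letters and not a shown binding site, and no match in a window says nothing about the factor.

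Per length, Casp1 was the most abundant of the 10 transcripts in the 4 groups without apigenin, and Nlrc4 and Nlrp1b were the least abundant. In WT + MSU libraries Casp1 averaged 84.6 ± 11.3 FPKM (fragments per kilobase of transcript, scaled to depth, SD, n = 3), Gsdmd 45.4 ± 6.74, Nlrp3 37.7 ± 10.2 and Txnip 31.5 ± 3.27 FPKM. There the library range of Nlrp3 (30.9 to 49.4 FPKM) overlapped those of Gsdmd and Txnip, so Nlrp3 is not set apart from either by the spread, while Gsdmd lay above Txnip in every library. Casp4 averaged 14.5 ± 1.21, Nek7 12.4 ± 0.122, Aim2 9.48 ± 3.64 and Pycard 6.75 ± 1.2 FPKM. In WT non-treated libraries Casp1 averaged 60.6 ± 7.64 FPKM, Gsdmd 36.9 ± 5.93 and Nlrp3 only 7.81 ± 1.80 FPKM. Nlrc4 averaged 2.93 ± 0.448 FPKM in WT + MSU and 3.70 ± 0.327 FPKM in WT non-treated libraries, and Nlrp1b 0.957 ± 0.579 and 1.51 ± 0.539 FPKM. Of the 4 sensors, Nlrp3 alone had a range after MSU that reached that of Gsdmd. In both apigenin groups Nlrc4 had the lowest mean of the 10 genes. In WT + apigenin libraries its mean of 0.610 FPKM was close to that of Nlrp1b (0.617 FPKM). The ranges overlapped there (0.473 to 0.731 and 0.521 to 0.758 FPKM), so the 2 genes are not set apart in that group. Txnip ranged in the apigenin groups from 4.34 to 53.8 FPKM with MSU and 22.9 to 62.2 FPKM without, so that its place in the order rests on single libraries.

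On GRCm38 the genes lie, by the GENCODE M21 annotation, at chr11:59541568-59566956 (Nlrp3), chr7:127989708-127993867 (Pycard), chr9:5298517-5307265 (Casp1), chr9:5308828-5336783 (Casp4), chr15:75862327-75867408 (Gsdmd), chr11:71153102-71230733 (Nlrp1b), chr17:74425438-74459142 (Nlrc4), chr1:173350879-173466040 (Aim2), chr1:138482875-138620141 (Nek7) and chr3:96557957-96561883 (Txnip). All are protein-coding, and Casp1 and Casp4 are neighbours on the same strand. Genes that overlap Aim2, Pycard and Txnip on the opposite strand (Cadm3, Gm45205 and Gm15441) had 0 to 59 counts per library, and whether counting used strand is not stated.

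**Figure D1:**
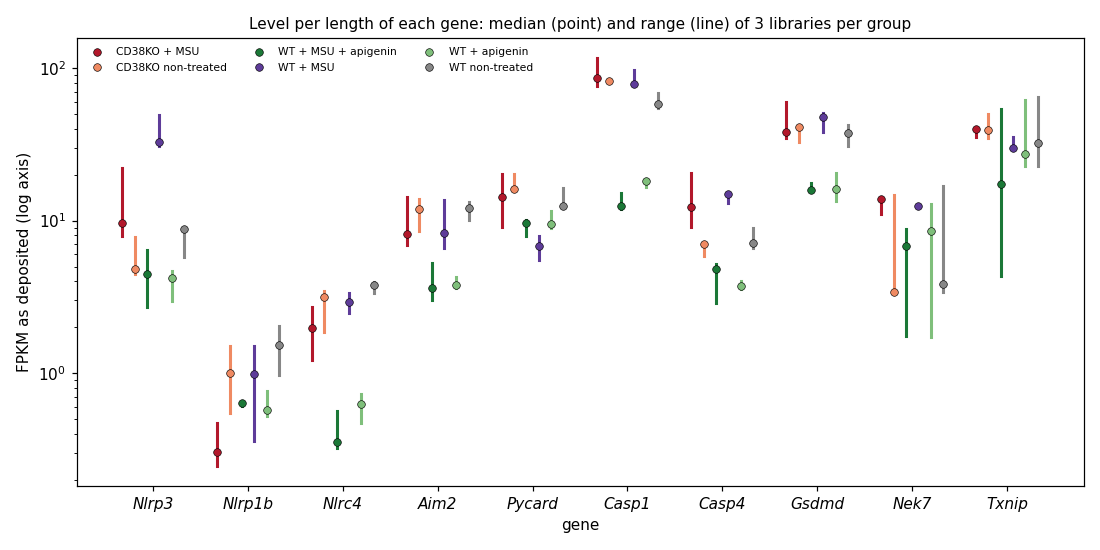
Deposited FPKM of the 10 genes (log axis) in the 6 groups, with a point at the median and a line over the range of 3 libraries. Casp1 lies highest in every group without apigenin, Nlrp1b and Nlrc4 lie lowest, and Nlrp3 in WT + MSU (30.9 to 49.4 FPKM) lies above its range in the other 5 groups.

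Nlrp3 had the largest log2FC with MSU of the 10 genes in WT BMDMs, and in CD38KO BMDMs it was not called. It was measured at 123, 182 and 128 CPM in WT + MSU, against 30.9, 29.9 and 22.6 CPM in WT non-treated BMDMs, and at 32.7, 94.1 and 41.6 CPM in CD38KO + MSU, against 18.1, 30.7 and 18.8 CPM in CD38KO non-treated BMDMs. The groups did not overlap in either genotype, and CD38KO + MSU replicate 2 stood far above the other libraries of its group. In WT BMDMs the transcript rose 5.19-fold (log2FC 2.38 ± 0.37 (SE), edgeR quasi-likelihood test, adjusted p = 0.00213). In CD38KO BMDMs the log2FC was 1.32 ± 0.36 with an adjusted p of 0.0631, which missed the threshold of 0.05, although DESeq2 called it (adjusted p = 0.00639) and so did the fit with a replicate block (0.0138).

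Casp4 encodes the mouse caspase-11, which binds bacterial lipopolysaccharide in the cytosol and cuts gasdermin D without an NLR sensor. It was called higher with MSU in both genotypes. Levels were 44.8, 51.8 and 56.6 CPM in WT + MSU and 28.4, 22.3 and 23.7 CPM in WT non-treated libraries. In CD38KO cells they were 46.9, 80.4 and 36.2 CPM with MSU and 21.7, 25.0 and 25.3 CPM without. The log2FC was 1.04 ± 0.28 in WT (adjusted p = 0.0362) and 1.18 ± 0.28 in CD38KO BMDMs (adjusted p = 0.0343). Both changes lie close to the thresholds: leaving out 1 library ended the call in 7 of 18 fits in WT, each of the 6 compared libraries among them (log2FC 0.96 to 1.15 over all 18 fits), and in 5 of 18 in CD38KO (0.79 to 1.45, the lowest without CD38KO + MSU replicate 2). In CD38KO cells the 6 fibroblast markers were all higher with MSU, 2 of them called, with sums of 148 to 315 CPM with MSU and 82.1 to 161 CPM without, and their part in the values was not tested.

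These were 2 of 10 genes called higher with MSU in WT, where 2.03% of all tested genes were called higher and 1.55% lower, and 1 of 10 in CD38KO, where 1.52% were called higher and 0.482% lower. No member was called lower. The median log2FC of the 10 genes was 0.10 in WT and 0.13 in CD38KO BMDMs, against -0.03 and -0.01 over all tested genes. Nlrp3 and Casp4 are also the 2 genes with an NF-κB match among the 9 with a promoter window, though another Nlrp3 start held none. Whether the matches bear on the MSU calls was not tested.

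The rest of the core did not pass the test with MSU. Pycard was at 27.8, 19.1 and 26.3 CPM in WT + MSU and 39.6, 40.0 and 60.5 CPM in WT non-treated libraries, with no overlap (log2FC -0.94 ± 0.29, adjusted p = 0.0694). Casp1 was at 135, 106 and 120.0 CPM in WT + MSU and 74.4, 68.5 and 100.2 CPM in WT non-treated libraries, again without overlap (0.57 ± 0.18, adjusted p = 0.0807). The adaptor thus read lower and the protease higher in each WT + MSU library than in any WT non-treated one, by amounts that the edgeR test with TMM scaling did not call. Pycard was called lower under library totals (-1.02, adjusted p = 0.0289) and by limma on log2(FPKM + 0.1) (-1.01, 0.0213), 2 settings under which Casp4 was not called. Gsdmd (0.40 ± 0.21), Nlrc4 (-0.22 ± 0.30) and Aim2 (-0.20 ± 0.32) had overlapping groups in WT, with 95% confidence limits of -0.06 to 0.86, -0.87 to 0.42 and -0.90 to 0.50. Aim2, a sensor of cytosolic DNA, was at 26.9, 20.9 and 48.4 CPM in WT + MSU and 39.8, 29.7 and 41.1 CPM in WT non-treated libraries.

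**Figure D2:**
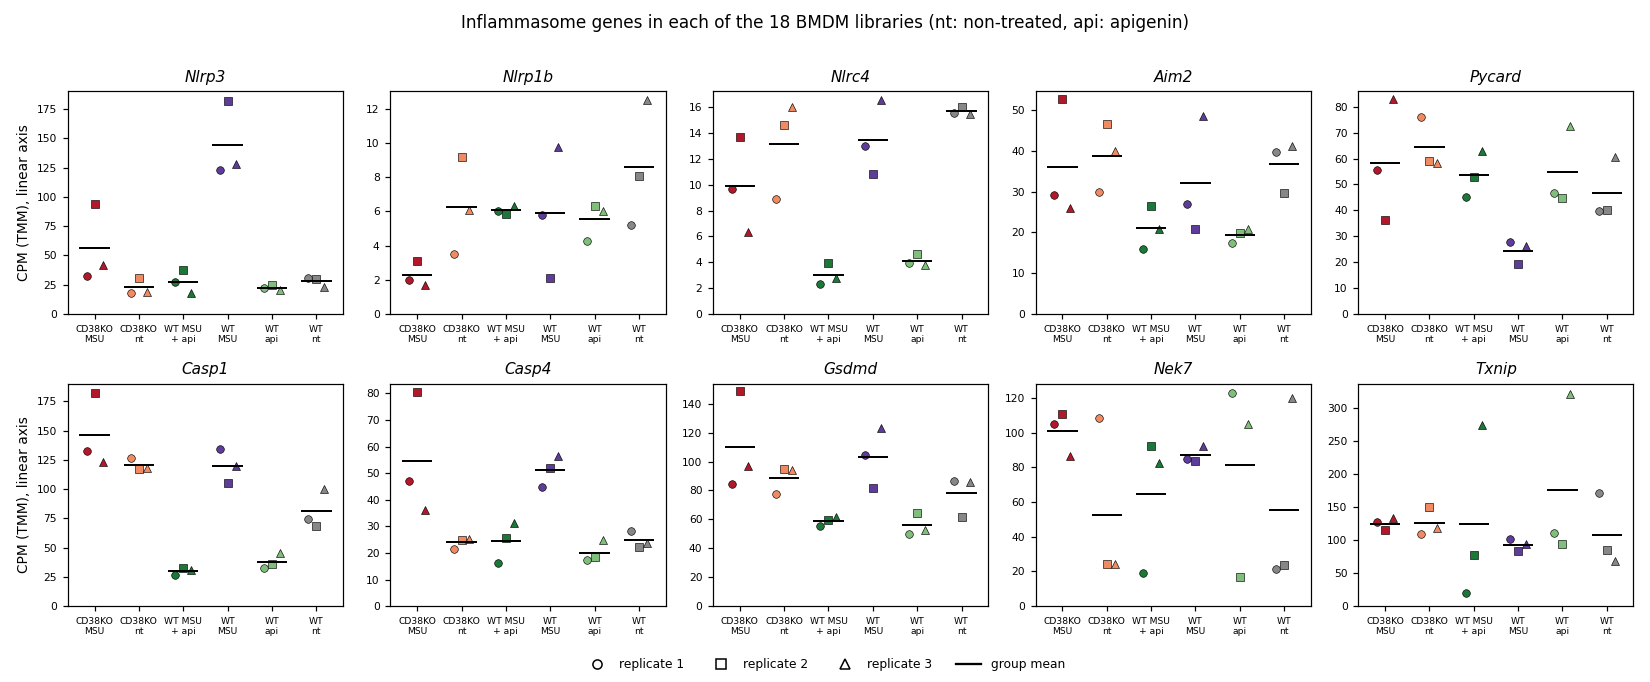
TMM-scaled CPM of each gene in the 18 libraries (linear axes from 0), by group, with a marker for each replicate number and a bar at the group mean. Nlrp3 stands highest in the 3 WT + MSU libraries (123 to 182 CPM), Casp1 and Nlrc4 are lowest in the 6 apigenin libraries, and Nek7 falls into 6 libraries at 16.7 to 24.3 CPM and 12 at 82.4 to 123 CPM.

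Apigenin together with MSU was compared with MSU alone, and 5 members were called. The WT + MSU libraries here are those set against WT non-treated ones above, so a high value there enters both comparisons. Of the 10 genes, 4 fell (Nlrp3, Casp1, Nlrc4 and Casp4) and 1 rose (Pycard), where 25.8% of all tested genes were called lower and 18% higher, so calls were frequent among all genes as well. The median log2FC of the members was -0.71, against -0.05 over all tested genes. The 8 macrophage markers moved too, and 4 of them were called higher (median log2FC 1.11). They summed to 49037 to 63465 CPM in WT + MSU + apigenin and 17893 to 18372 CPM in WT + MSU libraries. Lyz2 made up most of each sum, and the part of the markers in the values was not tested.

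Nlrp3 was at 26.9, 37.5 and 18.1 CPM in WT + MSU + apigenin, against 123, 182 and 128 CPM in WT + MSU libraries, a 5.25-fold lower level (log2FC -2.39 ± 0.37, adjusted p = 8.73e-05). The levels with apigenin overlapped those of WT non-treated cells (22.6 to 30.9 CPM). The call stood in all 31 alternative fits, among them all 18 that left out 1 library.

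Casp1 was at 26.7, 32.4 and 30.7 CPM in WT + MSU + apigenin, against 135, 106 and 120.0 CPM in WT + MSU libraries (log2FC -2.0 ± 0.19, adjusted p = 1.22e-06). Here all apigenin libraries lay below the WT non-treated range of 68.5 to 100.2 CPM. Without MSU, Casp1 was at 32.2, 35.9 and 45.2 CPM in WT + apigenin, against 74.4, 68.5 and 100.2 CPM in WT non-treated libraries (-1.10 ± 0.18, adjusted p = 0.000238). Leaving out WT non-treated replicate 3 brought this second change to -0.92, under the fold threshold.

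Nlrc4 forms an inflammasome with NAIP proteins that bind bacterial flagellin. It was at 2.31, 3.92 and 2.80 CPM in WT + MSU + apigenin, against 13.0, 10.8 and 16.5 CPM in WT + MSU libraries (log2FC -2.16 ± 0.31, adjusted p = 4.17e-05). Without MSU it was at 3.92, 4.65 and 3.78 CPM in WT + apigenin, against 15.6, 16.1 and 15.5 CPM in WT non-treated libraries (-1.93 ± 0.31, adjusted p = 0.000156). The 6 apigenin libraries, with 86 to 257 counts each, lay below the other 12, with 494 to 1587 counts each. A pseudogene on the same strand inside the gene, CT033749.1, had 24 to 129 counts, and how reads were shared between them is not stated.

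Casp4 was at 16.1, 25.7 and 31.3 CPM in WT + MSU + apigenin, against 44.8, 51.8 and 56.6 CPM in WT + MSU libraries (log2FC -1.07 ± 0.28, adjusted p = 0.00461), and lost the call without WT + MSU + apigenin replicate 1 (-0.84) or WT + MSU replicate 3 (-0.99). Pycard went the other way, at 45.0, 52.9 and 63.0 CPM in WT + MSU + apigenin, against 27.8, 19.1 and 26.3 CPM in WT + MSU libraries (1.14 ± 0.29, adjusted p = 0.00394). Its apigenin levels overlapped those of WT non-treated cells (39.6 to 60.5 CPM). The Pycard change depended on the scaling. Apigenin libraries had TMM factors of 0.667 to 0.837 and the others 1.06 to 1.31, and scaling by library totals alone moved the median log2FC of all genes by -0.71 and that of Pycard to 0.42 (adjusted p = 0.165). On the FPKM scale Pycard had 9.26 ± 1.16 FPKM in WT + MSU + apigenin and 6.75 ± 1.2 FPKM in WT + MSU libraries (limma on log2(FPKM + 0.5), 0.44, adjusted p = 0.126).

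Gsdmd and Aim2 missed the fold threshold. Gsdmd was at 55.2, 59.9 and 61.5 CPM in WT + MSU + apigenin, against 104, 81.7 and 123 CPM in WT + MSU libraries, with no overlap (log2FC -0.81 ± 0.21, adjusted p = 0.00466). Aim2 was at 15.8, 26.4 and 20.9 CPM in WT + MSU + apigenin, against 26.9, 20.9 and 48.4 CPM in WT + MSU libraries (-0.61 ± 0.32, adjusted p = 0.119). Without MSU, Aim2 was at 17.4, 19.9 and 20.9 CPM in WT + apigenin and 39.8, 29.7 and 41.1 CPM in WT non-treated libraries, a log2FC of -0.93 ± 0.33 with an adjusted p of 0.0274. Under library totals, which shift the median of all genes by -0.71 and -0.69, Gsdmd and Aim2 were called lower in both (Gsdmd -1.51 and -1.16, Aim2 -1.28 and -1.62, with and without MSU).

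With apigenin alone 2 of the 10 genes fell, Casp1 and Nlrc4, where 22.2% of all tested genes were called lower and 13.1% higher. Nlrp3 (log2FC -0.31 ± 0.36), Casp4 (-0.30 ± 0.28) and Pycard (0.23 ± 0.29) had overlapping groups there, with confidence limits of -1.09 to 0.47, -0.90 to 0.31 and -0.40 to 0.86. Under library totals 7 of the 10 genes were called lower, where 4470 of the 12025 tested genes were called lower and 129 higher. That scaling shifted the median log2FC of all genes by -0.69. The apigenin groups, with MSU and without, could not be told apart in any member: 0 of 10 genes were called by edgeR, where 0.0582% of all genes were called in either direction. An unadjusted p under 0.05 was reached by 0 of the 10 and by 743 of the 12025 tested genes. For Nlrp3 that difference was 0.30 ± 0.36 (-0.48 to 1.07). The titles and a treatment tag in the labels disagree on which apigenin libraries received MSU. The titles were followed, and exchanging the groups left the calls of Nlrp3, Casp1 and Nlrc4 with apigenin under MSU in place.

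**Figure D3:**
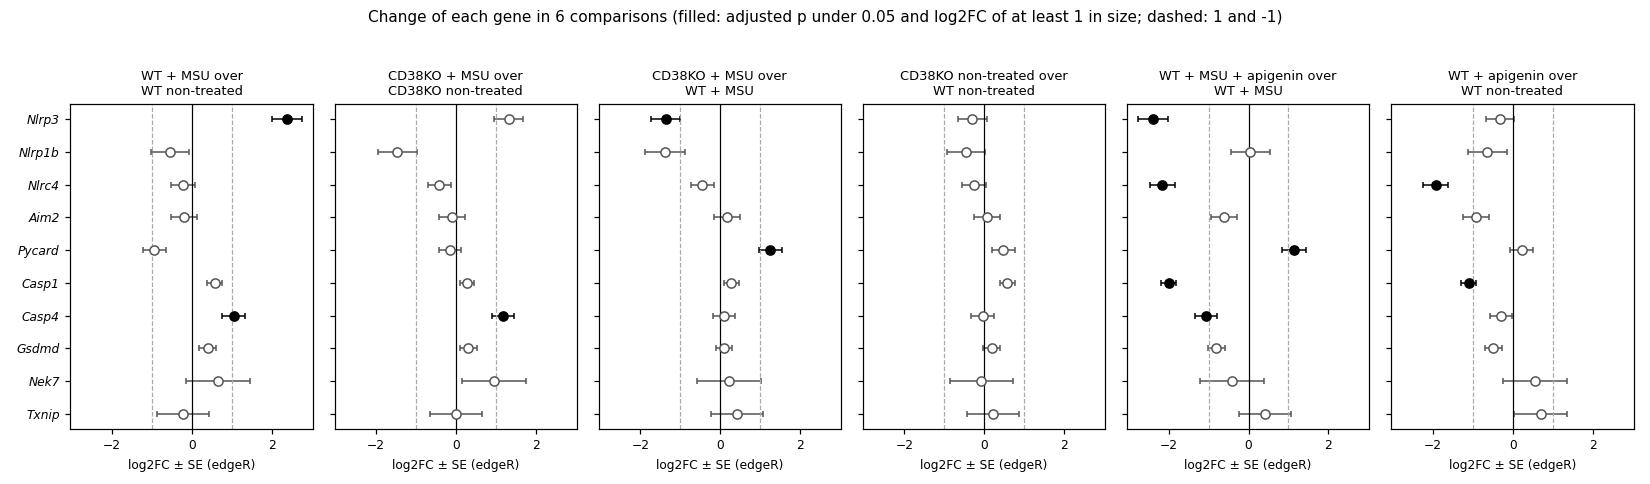
The log2FC of each gene with its SE in 6 comparisons, each named as the first group over the second, with filled points for calls. Nlrp3 is filled at 2.38 with MSU in WT, at -1.36 in CD38KO + MSU over WT + MSU and at -2.39 with apigenin under MSU, while Nek7 and Txnip have SEs of 0.66 to 0.81 throughout.

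Whether apigenin changed the response to MSU was tested as an interaction, the log2FC of MSU with apigenin minus that without it. It was -2.08 ± 0.51 for Nlrp3 (unadjusted p = 0.00102, adjusted p = 0.0589), -0.90 ± 0.26 for Casp1 (adjusted p = 0.104) and 0.91 ± 0.41 for Pycard (adjusted p = 0.325). None of the 10 was called by edgeR, where 0.358% of all genes were called higher and 0.690% lower. An unadjusted p under 0.05 was reached by 3 of the 10 and by 1701 of the 12025 tested genes. The interaction of Nlrp3 was past the threshold by DESeq2 (adjusted p = 0.00364), with a replicate block (0.00998) and in the fit of the 4 compared groups alone (0.0372). That of Nlrc4, which fell both with and without MSU, was -0.23 ± 0.42 (confidence limits -1.14 to 0.69).

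CD38KO and WT BMDMs were compared under MSU, again with the WT + MSU libraries as one side. Nlrp3 was at 32.7, 94.1 and 41.6 CPM in CD38KO + MSU, against 123, 182 and 128 CPM in WT + MSU libraries, lower without overlap (log2FC -1.36 ± 0.36, adjusted p = 0.0471). Pycard was at 55.5, 36.1 and 82.9 CPM in CD38KO + MSU, against 27.8, 19.1 and 26.3 CPM in WT + MSU libraries, higher without overlap (1.25 ± 0.29, adjusted p = 0.0278). These were 1 of 10 genes in each direction, where 2.65% of all genes were called lower and 0.715% higher. The Nlrp3 call was kept in 5 of 18 fits with 1 library left out, was at an adjusted p of 0.213 without WT + MSU replicate 2, and was lost in the fit of the 2 groups alone (0.149) and with no low-value filter (0.0694). The Pycard call was kept in 14 of 18 and lost without CD38KO + MSU replicate 1 or 3 or WT + MSU replicate 1 or 2 (lowest log2FC 0.87), and also in the fit of the 2 groups alone (adjusted p = 0.129).

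The proteases and the effector showed no difference of that kind. Casp1 was at 132, 182 and 123 CPM in CD38KO + MSU and 135, 106 and 120.0 CPM in WT + MSU libraries (log2FC 0.28 ± 0.18, confidence limits -0.12 to 0.68). Casp4 (0.09 ± 0.28, -0.51 to 0.70) and Gsdmd (0.10 ± 0.21, -0.36 to 0.55) overlapped likewise. Fibroblast markers moved with this comparison, at 148 to 315 CPM in CD38KO + MSU and 646 to 3807 CPM in WT + MSU libraries summed over the 6 markers, with 4 of the 6 called lower, and the 7 tested neutrophil markers (median log2FC -4.36) and 5 tested endothelial markers (-2.09) all read lower with none called. The neutrophil markers summed to 15.4 to 23.2 CPM in CD38KO + MSU and 15.4 CPM in WT + MSU replicate 3, against 184 and 311 CPM in WT + MSU replicates 1 and 2. The part of these markers in the values was not tested. With replicate 3, in which Ifi202b was near 0 as in CD38KO, as the only library of each WT group, Nlrp3 was at -1.19 and Pycard at 1.14, neither called (adjusted p = 0.630 and 0.527). That fit has 1 WT library on its side and takes its spread from the CD38KO groups.

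Non-treated CD38KO and WT BMDMs differed in none of the 10 genes by edgeR, where 0.366% of all genes were called higher and 3.96% lower. An unadjusted p under 0.05 was reached by 1727 of the 12025 tested genes and by 1 of the 10. This was Casp1, at 126, 118 and 118 CPM in CD38KO non-treated, against 74.4, 68.5 and 100.2 CPM in WT non-treated libraries (log2FC 0.57 ± 0.18, adjusted p = 0.102), without overlap. Nlrp3 was at 18.1, 30.7 and 18.8 CPM in CD38KO non-treated and 30.9, 29.9 and 22.6 CPM in WT non-treated libraries (-0.30 ± 0.36, -1.08 to 0.47). The fibroblast markers were again lower in CD38KO, with all 6 called, as were 3 of 5 endothelial markers (median log2FC -3.31), and the 7 neutrophil markers read lower with none called (-4.27). The neutrophil markers summed to 8.86 to 14.0 CPM in CD38KO non-treated and 8.40 CPM in WT non-treated replicate 3, against 196 and 184 CPM in WT non-treated replicates 1 and 2. The part of these markers in the values was not tested.

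The difference between the genotypes in their response to MSU was tested as an interaction. It was -1.06 ± 0.51 for Nlrp3 (unadjusted p = 0.0535, confidence limits -2.16 to 0.04), 0.79 ± 0.41 for Pycard (unadjusted p = 0.0732) and 0.14 ± 0.39 for Casp4 (unadjusted p = 0.723). By edgeR 0 of 10 members and 0% of all genes were called, with 427 of the 12025 genes and 0 of 10 members at an unadjusted p under 0.05, and DESeq2 called 16 genes higher and 4 lower, none of them a member. A smaller response of Nlrp3 to MSU in CD38KO was therefore not shown at this number of libraries, nor an equal one.

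Nek7 encodes a kinase that binds NLRP3 during its activation. Its levels fell into 2 sets that no group label follows. It was at 105, 111 and 86.7 CPM in CD38KO + MSU and at 109, 24.3 and 24.3 CPM in CD38KO non-treated libraries. In WT cells it was at 19.4, 92.4 and 82.4 CPM with MSU and apigenin, 85.0, 83.4 and 92.3 CPM with MSU, 123, 16.7 and 105 CPM with apigenin and 21.3, 24.0 and 120.1 CPM without treatment. All 6 libraries with MSU and no apigenin were high, and the 6 low ones came from the other 4 groups. The gap between the sets was 1.74 on the log2 scale, and 269 of the 12025 tested genes had a gap at least that wide with 3 or more libraries on each side. No comparison called Nek7, with SEs of 0.80 to 0.81 and a log2FC of 0.66 ± 0.80 with MSU in WT (confidence limits -1.09 to 2.40). The 3 loci annotated inside the gene had 0 to 8 counts in every library.

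Txnip encodes an arrestin-like protein that binds thioredoxin and has been placed upstream of NLRP3. Among the groups without apigenin it spread most widely in WT non-treated libraries, at 172, 84.8 and 68.8 CPM. It was at 128, 115 and 133 CPM in CD38KO + MSU, 109, 150.1 and 118 CPM in CD38KO non-treated and 102, 83.8 and 94.7 CPM in WT + MSU libraries. Each CD38KO + MSU library lay above each WT + MSU library, without a call by edgeR (log2FC 0.42 ± 0.66, adjusted p = 0.780). With apigenin Txnip spread over 20.3, 78.3 and 275 CPM with MSU and 111, 94.5 and 322 CPM without. Replicate 3 was the highest library in both apigenin groups, and the 3 pairs of equal number gave log2 differences of -2.30, -0.10 and 1.53 for apigenin under MSU and -0.63, 0.15 and 2.22 for apigenin alone. No comparison called it (0.41 ± 0.66 and 0.70 ± 0.66), and the sign turned under library totals (-0.35 and -0.10) and without the high library (-0.92 without WT + MSU + apigenin replicate 3 and -0.08 without WT + apigenin replicate 3). Its direction with apigenin is therefore not given.

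Nlrp1b, a sensor that proteases of pathogens activate by cutting it, was the least abundant of the sensors in the groups without apigenin. It was at 1.97, 3.12 and 1.68 CPM in CD38KO + MSU, against 3.48, 9.18 and 6.10 CPM in CD38KO non-treated libraries (log2FC -1.47 ± 0.49, adjusted p = 0.129), and at 5.78, 2.09 and 9.77 CPM in WT + MSU, against 5.23, 8.06 and 12.5 CPM in WT non-treated libraries. With apigenin it was at 5.88 to 6.32 CPM with MSU and 4.29 to 6.31 CPM without. Its near copy Nlrp1a was at 0.945 to 8.03 CPM in the 6 CD38KO libraries and at 0.403 to 5.33 CPM in replicates 1 and 2 of the WT groups, and at 0 counts in the 4 libraries numbered 3, while Nlrp1b was detected in all 18. Reads of such copies may be split between them, so the values of both are uncertain.

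The genes whose levels followed Nlrp3 most closely, by the Pearson correlation of log2 CPM over the 18 libraries, were Zhx2 (r = 0.959), Rasd2 (0.939), Slc7a11 (0.939), Ripk2 (0.937) and Nos2 (0.936). For Casp4 they were Nfkbib (0.946), Rasgef1b (0.943), Phlpp1 (0.939), Mafk (0.933) and Csrnp1 (0.931), and for Txnip Zkscan14 (0.897), Alkbh4 (0.779), Gm12992 (0.718), Bbc3 (0.710) and Map3k8 (0.695). These are the highest of 12025 values and carry the differences between the 6 groups, so they describe the 18 libraries only.

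Among the cytokine genes that inflammasomes act on, Il1b and Il1rn were called with MSU in both genotypes. Il1b, the precursor of IL-1β, was at 45.7, 120.0 and 203 CPM in WT + MSU, against 4.55, 6.84 and 8.59 CPM in WT non-treated libraries (log2FC 4.21 ± 0.69, adjusted p = 0.00266). It was at 3.42, 5.71 and 4.71 CPM in WT + MSU + apigenin (-4.73 ± 0.71 against WT + MSU, adjusted p = 5.98e-05). In CD38KO cells it was at 9.37, 17.2 and 18.2 CPM with MSU and 0.116, 1.2 and 0.810 CPM without (4.39 ± 0.71, adjusted p = 0.00426), and it was lower than in WT both with MSU (-3.04 ± 0.65, adjusted p = 0.0208) and without (-3.22 ± 0.67, adjusted p = 0.00907). The call under MSU was lost in 3 of 18 fits with 1 library left out, at most at an adjusted p of 0.116 without CD38KO + MSU replicate 1, and both calls were lost in fits of the 2 groups alone (0.0718 and 0.0834), as was that for MSU in CD38KO (0.0551). Il1b thus read lower in CD38KO without MSU as well, and the 3 CD38KO + MSU libraries lay below every WT + MSU library.

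Il1rn encodes a secreted antagonist of the IL-1 receptor, and it rose in both genotypes after MSU. It was at 199, 247 and 283 CPM in WT + MSU and 37.8, 27.5 and 23.2 CPM in WT non-treated libraries (log2FC 3.04 ± 0.34, adjusted p = 0.000289), and the log2FC was 2.24 ± 0.33 in CD38KO BMDMs (adjusted p = 0.00252). Il18, the other precursor that caspase-1 cuts, stayed between 2.35 and 7.65 CPM in all 18 libraries and was not called in any comparison. With apigenin under MSU it missed the fold threshold (0.90 ± 0.30, adjusted p = 0.0201). Il1a had a log2FC of 3.31 ± 1.04 with MSU in WT (adjusted p = 0.0740). Il18bp, whose product binds IL-18, rose with apigenin alone (1.29 ± 0.40, adjusted p = 0.0155).

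**Figure D4:**
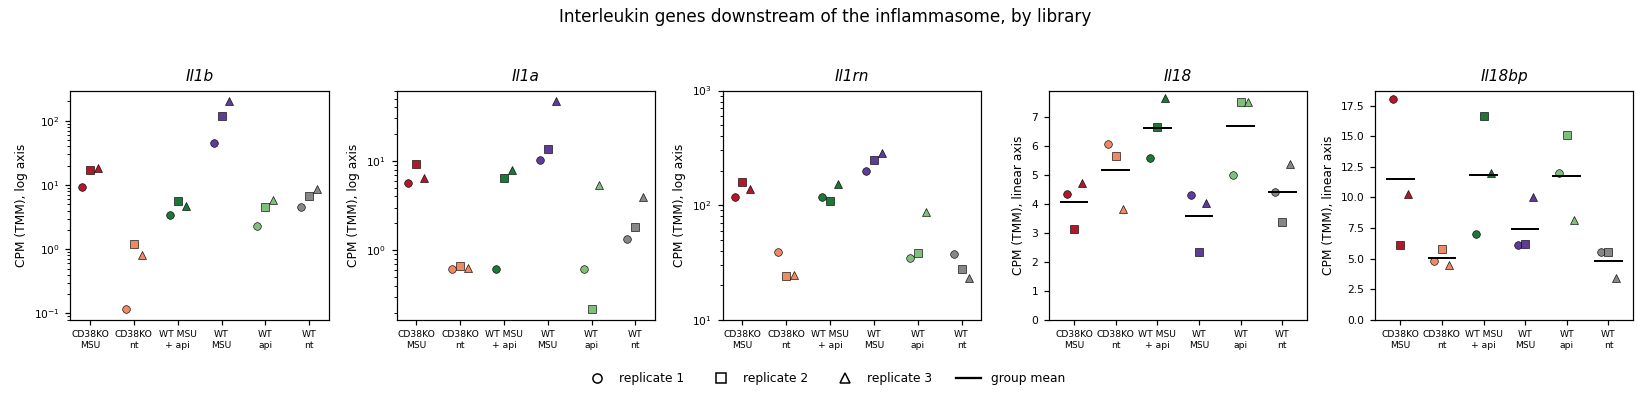
TMM-scaled CPM of the 5 interleukin genes in the 18 libraries, on log axes for Il1b, Il1a and Il1rn and on linear axes from 0 with group means for Il18 and Il18bp. Il1b and Il1rn are highest in WT + MSU (45.7 to 203 and 199 to 283 CPM), Il1b is lowest in CD38KO non-treated (0.116 to 1.2 CPM), and Il18 stays within 2.35 to 7.65 CPM.

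In the list of other sensors of the family, 10 of 14 genes were tested. With apigenin under MSU 7 fell, 0 rose and 3 were not called (median log2FC -2.01, against -0.05 over all genes), led by Nod2 (-5.08 ± 1.06, adjusted p = 0.000914), Nlrp10 (-3.54 ± 0.96), Nlrx1 (-2.60 ± 0.43) and Mefv (-2.47 ± 0.98), whose call was lost in 5 of 18 fits with 1 library left out. The calls of Nlrp10 and Mefv were lost in the edgeR fit of the 2 groups alone (adjusted p = 0.104 and 0.0769). Nlrp10 had 27, 0 and 0 counts in WT + MSU + apigenin libraries. Nod2, a cytosolic sensor of bacterial peptidoglycan, was at 0, 0.374 and 1.36 CPM in WT + MSU + apigenin, against 22.2, 19.2 and 18.4 CPM in WT + MSU libraries. With apigenin alone 6 fell and 0 rose. Of all genes, 25.8% were called lower with apigenin under MSU and 22.2% with apigenin alone. With MSU in either genotype and between the genotypes 0 of 10 were called, where 0.366% to 3.96% of all genes were called in each direction. Naip2, one of several near-identical copies, was among the 7 (-1.17 ± 0.38), and its counts are uncertain for that reason.

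Of 9 tested genes for ion channels and pores upstream of NLRP3, 4 fell with apigenin under MSU, against 25.8% of all genes: the potassium channels Kcnk6 (-2.87 ± 0.38, adjusted p = 2.10e-05) and Kcnk13 (-2.13 ± 0.36), the pannexin Panx1 (-1.54 ± 0.37) and the calcium channel Orai1 (-1.46 ± 0.50). With apigenin alone, where 22.2% of all genes were called lower, 4 fell, Kcnk6, Kcnk13, Orai1 and the ATP receptor P2rx7 (-1.66 ± 0.54). With 1 library left out, the call of Orai1 was kept in 16 of 18 fits under MSU and 17 of 18 alone, and that of P2rx7 in 15 of 18. Of these 9 genes MSU called Clic4 in WT, a chloride channel gene, which rose (1.18 ± 0.20, adjusted p = 0.00303), and 0 in CD38KO. MSU called 2.03% of all genes higher in WT and 1.52% in CD38KO.

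Of 14 tested licensing factors and inhibitors, 7 fell and 0 rose with apigenin under MSU (median log2FC -1.22), where 25.8% of all genes were called lower. The falls were led by Serpinb1a, an inhibitor of neutrophil proteases and caspase-1 (-3.89 ± 1.03), Gbp5 (-3.49 ± 1.01), Irf2, a transcription factor needed for Gsdmd expression (-2.55 ± 0.38), and the kinase Syk (-2.20 ± 0.28, adjusted p = 1.27e-05). With apigenin alone 2 fell, Irf2 (-2.62 ± 0.38) and Syk (-1.68 ± 0.27), and 1 rose, the chaperone Hsp90ab1 (1.23 ± 0.14). There 22.2% of all genes were called lower and 13.1% higher. Neither MSU nor CD38KO called any of the 14, where 0.366% to 3.96% of all genes were called in each direction.

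Of 9 cell death genes beside Gsdmd, 2 fell with apigenin under MSU, where 25.8% of all genes did, Fadd (-2.71 ± 0.23, adjusted p = 5.90e-07) and Ripk1 (-2.06 ± 0.19), and 1 rose, Casp12 (1.28 ± 0.50, adjusted p = 0.0381). With apigenin alone Fadd (-2.51 ± 0.23) and Ripk1 (-1.77 ± 0.19) fell and Casp12 rose (1.45 ± 0.50). The rise of Casp12 was lost in 4 of 18 fits with 1 library left out under MSU and 3 of 18 alone, and in the fit of the 2 groups alone under MSU (adjusted p = 0.121). Casp12, a caspase related to Casp1 and Casp4, was lower in CD38KO. It was at 0.538, 0.508 and 0.715 CPM in CD38KO + MSU, against 2.81, 9.03 and 1.93 CPM in WT + MSU libraries (-2.96 ± 0.53, adjusted p = 0.0101), and at 0.708, 1.10 and 1.18 CPM in CD38KO non-treated, against 6.60, 6.66 and 3.85 CPM in WT non-treated libraries (-2.51 ± 0.52, adjusted p = 0.00876). The call under MSU was lost in the fit of the 2 groups alone (0.0883) and without CD38KO + MSU replicate 1 (0.0728), and that without MSU when CD38KO non-treated replicate 1 was left out (0.0566). Fibroblast markers summed to 82.1 to 315 CPM in CD38KO libraries and 571 to 6669 CPM in WT libraries. Their part in the Casp12 values was not tested.

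Of 10 tested genes of the thioredoxin system and the arrestin relatives of Txnip, 5 fell with apigenin under MSU, led by Txnrd1, the cytosolic thioredoxin reductase (-3.64 ± 0.51, adjusted p = 3.15e-05), Arrdc3 (-2.59 ± 0.52) and Mlxip, which encodes the glucose-sensing factor MondoA known to drive Txnip (-2.02 ± 0.34), while Txn2, the mitochondrial thioredoxin, rose (1.59 ± 0.25). With apigenin alone 4 fell, led by Arrdc3 (-3.48 ± 0.53) and Mlxip (-2.37 ± 0.34), and 2 rose, Txn2 (1.64 ± 0.25) and Txn1 (1.04 ± 0.27). With MSU in WT Txnrd1 (1.83 ± 0.47, adjusted p = 0.0310) and Arrdc4 (1.08 ± 0.29, 0.0382) rose and Arrdc3 fell (-2.13 ± 0.50, 0.0224), each call being lost in 5 to 7 of 18 fits with 1 library left out. There 2.03% of all genes were called higher and 1.55% lower. Under library totals no gene of the 6 lists was called higher with apigenin. Txn2 (0.88 and 0.93, with and without MSU) and Hsp90ab1 (0.54 without) then stayed under an adjusted p of 0.05 and missed the fold threshold, while Txn1, Casp12 and Il18bp missed both.

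**Figure D5:**
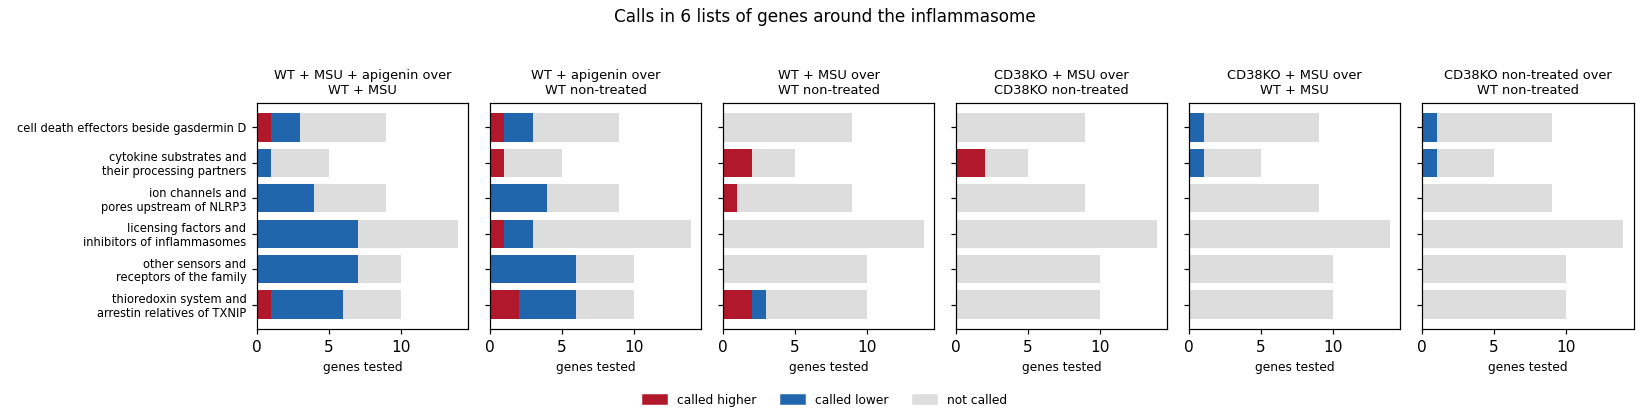
Number of tested genes called higher, called lower and not called in 6 lists of genes around the inflammasome, in 6 comparisons named as the first group over the second. In WT + MSU + apigenin over WT + MSU, 7 of 10 other sensors and 7 of 14 licensing factors are lower, where 25.8% of all genes are lower, against 1.55% in WT + MSU over WT non-treated.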

How the data were processed

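RNA-seq was analysed in 18 libraries of BMDMs. The deposited table held whole-number counts and FPKM per gene; FPKM is the authors' normalization to length and depth. Tools named in the submitters' processing notes are HISAT2, StringTie, edgeR, FastQC and cutadapt. The genome build and whether counting used strand are not given in the sources used here. Gene IDs match GENCODE M21 (GRCm38). A second table, of the authors' log2 fold changes, was not used, and 0 columns could not be assigned.

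Genes that reached an FPKM of 1 in 3 or more libraries were kept, and their counts fitted with edgeR 4.0.16 in R 4.3.3 (quasi-likelihood test, TMM, 1 fit of the 6 groups). Calls needed an adjusted p (Benjamini-Hochberg, over 12025 genes) below 0.05 together with a log2FC of 1 or more in either direction. The SE is the size of the log2FC over the square root of F. Alternatives used DESeq2 1.42.0, limma 3.58.1, other scalings and filters, a replicate block and each library left out in turn. The fitting was tested on simulated data. Counting error and the depth of 51058336 to 83209648 counts limit low genes, and p-values measure the spread between the libraries, which the labels do not say are separate mice.

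All 10 genes are named, and from each list up to 4 called genes with the largest log2FC per comparison. Cd38 checks the genotype, and Nlrp1a, Il18, Il1a and Naip2 were named after their values were seen. The genes and lists were chosen with earlier results of these data known. Pydc3, Pydc4 and Irgb10 were not analysed here, and 2 genes of the cell death list are not reported here. For each comparison, the correlation of deviations of same-numbered libraries was checked, and it was over 0.1 in every pair only within WT with apigenin (0.142 to 0.436 under MSU, 0.266 to 0.584 alone, 0.227 to 0.625 for MSU with apigenin). Promoter windows came from RefSeq (GRCm38.p6).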

Additional observations from a re-analysis of the deposited data

Results flagged for a closer look

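The response to MSU differed with and without apigenin in 1 gene of the lists around the inflammasome, Il1b, by the interaction term of the edgeR fit. The interaction was -4.06 ± 0.89 (adjusted p = 0.0406). Il1b was at 3.42, 5.71 and 4.71 CPM in WT + MSU + apigenin and 2.32, 4.49 and 5.75 CPM in WT + apigenin libraries, and at 45.7, 120.0 and 203 CPM in WT + MSU and 4.55, 6.84 and 8.59 CPM in WT non-treated libraries. The call held in 6 of 18 fits with 1 library left out, with the highest adjusted p of 0.104 without WT non-treated replicate 1.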

How the results depend on the processing

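Of 279 counts of called members under another setting, 225 stayed within 1.5 times of the reported count. Counts that stayed at 0 are among the 225, so comparisons without a called member raise that number. For CD38KO under MSU, 5 of 18 counts with 1 library left out stayed. With MSU in WT, 2 called members became 1 with no low-value filter, with an FPKM of at least 5 and by limma on log2(FPKM + 0.5) or log2(FPKM + 1), and 0 with WT replicate 3 only. The count stayed at 2 under library totals and by limma with a pseudocount of 0.1, where Pycard, called lower, took the place of Casp4. With MSU in CD38KO, 1 became 2 by DESeq2 and with the replicate block, and 0 with no filter, by limma at each of 3 pseudocounts, with the compared groups alone and with WT replicate 3 only. With apigenin alone, 2 became 7 under library totals, 5 by limma with a pseudocount of 0.1 and 4 with 0.5 or 1. For CD38KO under MSU, 2 became 1 with no filter and by limma with a pseudocount of 0.5 or 1, and 0 with the compared groups alone and with WT replicate 3 only. For the interaction of MSU and apigenin, 0 became 1 by DESeq2, by limma with a pseudocount of 1, with the compared groups alone, with the replicate block in either fit and with the treatment tag.

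Leaving out 1 library gave 1 to 2 called members with MSU in WT, 0 to 1 in CD38KO, 4 to 5 with apigenin under MSU, 1 to 3 with apigenin alone, 0 to 2 for CD38KO under MSU and 0 to 1 for the interaction of MSU and apigenin, and 0 throughout in the other comparisons. Signs turned for Txnip with apigenin under MSU (-0.35 under library totals, -0.93, -0.97 and -0.89 by limma with pseudocounts of 0.5, 0.1 and 1, -0.92 without WT + MSU + apigenin replicate 3) and alone (-0.0977 under library totals, -0.0922, -0.0933 and -0.0909 by limma with the same pseudocounts, -0.0801 without WT + apigenin replicate 3), and for Casp4 with apigenin alone (0.0662 with WT replicate 3 only). The fits with 1 library left out gave Txnip values of -0.92 to 0.918 under MSU and -0.0801 to 1.196 without. With WT replicate 3 only, Txnip was at 1.54 and 2.23, but each WT group is then 1 library, the spread comes from the CD38KO groups alone, and replicate 3 is the high Txnip library.

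Same-numbered libraries deviated together in the 3 comparisons within WT that involve apigenin (correlations of 0.142 to 0.625), and no calls of members were lost there with the replicate block. With apigenin under MSU, all 3 libraries of the first group correlated best with the library of their own number. With apigenin alone and for MSU with apigenin, only 2 of 3 did, so the numbers pair these libraries only in part. In the other comparisons not every same-numbered pair deviated together (0.0809 to 0.540 with MSU in WT), although in each WT group replicate 3 differed from 1 and 2 in Ifi202b and neutrophil markers. With MSU in WT, all 3 WT + MSU libraries still correlated best with the WT non-treated library of their own number. With the block, the calls over all genes were 251 higher and 103 lower with MSU in CD38KO, against 183 and 58 without it, and 66 and 136, against 43 and 83, for the interaction of MSU and apigenin. DESeq2 gave 433 and 119 with MSU in CD38KO, 171 and 635 for CD38KO under MSU, against 86 and 319, and 147 and 266 for that interaction. Library totals gave 351 and 4813 for apigenin under MSU, against 2168 and 3107, and 129 and 4470 for apigenin alone, against 1573 and 2664. Depth limits Nlrp1b and Nlrc4 most, at 86 to 1587 counts per library.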
